A study of Mus musculus with 6 samples.

Results

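The genes described here are 9 receptors and markers of the macrophages that line and filter the spleen, chosen by name out of the 47729 genes in the table: Marco, Siglec1, Cd209a, Cd209b, Msr1, Colec12, Cd36, Nr1h3 and Cd68. All 9 were found in the table and all 9 passed the filter on low counts. Marco and Cd209b (SIGN-R1) are the usual markers of marginal zone macrophages, which sit at the border of the white pulp and take up blood-borne particles and polysaccharides. Siglec1 (CD169, sialoadhesin) marks the metallophilic macrophages just inside that border. Nr1h3 encodes the oxysterol receptor LXRα, which the marginal zone macrophages need in order to form. Marco, Msr1, Colec12 and Cd36 are scavenger receptors that bind modified lipoproteins, microbes or dying cells, the C-type lectins Cd209a and Cd209b bind glycans, and Cd68 is a lysosomal protein found in most macrophages.

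Spleen RNA was sequenced from 3 NOD.B10 females, a mouse strain that develops a disease resembling primary Sjögren's syndrome (pSS), and from 3 C57BL/10 (BL/10) females, the healthy control strain. NOD.B10 carries the H2 b haplotype of the B10 background on the autoimmunity-prone NOD genome, and BL/10 lacks that genome, so the strains differ at many loci. No treatment or engineered allele is given for either group. The libraries held between 15662712 and 18298451 counted reads, and the deposited values were raw read counts per gene.

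The strain of each library was read from its column name and description. In all 6 cases the title and the strain field give the other strain, and under them each direction below would turn around. BL/10 replicate 3 was matched by library number and strain only, since its description and its column carry different S numbers. By the labels, the 3 NOD.B10 mice and BL/10 replicate 1 were 26 weeks old and BL/10 replicates 2 and 3 were 36 weeks old, whereas the study's methods describe age-matched animals. The libraries of the strains also differed in the markers of other cells and tissues. The summed level of 13 pancreas genes was 12950, 2009 and 109.4 CPM (reads scaled to a common library size) in BL/10 replicates 1, 2 and 3, against 22.2 to 31.0 CPM in NOD.B10. The summed level of 8 adipocyte genes was 201.3 CPM in BL/10 replicate 3 and 31.9 to 55.5 CPM in the other libraries. The summed level of 12 neutrophil genes was 6369 to 13300 CPM in BL/10 and 2271 to 2611 CPM in NOD.B10. That of 10 T cell markers was 430.2 to 588.0 CPM in BL/10 and 841.6 to 1091 CPM in NOD.B10, and 8 of the 10 were called higher and 0 lower. Neither of these ranges overlapped between the strains. These are whole-spleen libraries, so fewer cells of a type and less RNA per cell cannot be told apart.

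The macrophage identity of the tissue was checked against defining markers. The summed level of 15 monocyte and macrophage markers was 5632 to 6392 CPM in NOD.B10 and 5147 to 5639 CPM in BL/10, and that of 10 red pulp macrophage markers was 3516 to 4492 CPM and 3712 to 4451 CPM. Both ranges overlapped between the strains, the first of them by a narrow margin. The first sum was mostly Lyz2, the lysozyme of macrophages and neutrophils, at 3580 to 4012 CPM in NOD.B10 and 2758 to 3375 CPM in BL/10 (log2 fold change 0.27, edgeR adjusted p = 0.211), so it says little about the rarer markers. The monocyte gene Ly6c2 was at 9.27 to 10.4 CPM in NOD.B10 and 115.5 to 229.4 CPM in BL/10 (log2 fold change -3.98, edgeR adjusted p = 0.000145). The Fc receptor gene Fcgr1 and the integrin gene Itgam were also lower, at -1.16 and -0.95 (edgeR adjusted p = 0.0151 and 0.0199). With Ly6c2 they were the 3 called of the 15, and the median log2 fold change of the list was -0.004. Other markers were not called but had libraries that did not overlap between the strains. C1qa, Cx3cr1 and Maf were higher, at 0.40, 0.395 and 0.33, and Adgre1 was lower, at -0.37. C1qb, C1qc and Ccr2, also in the list, were at -0.047, 0.162 and 0.175 and overlapped. In 38.0% of all genes tested the libraries of the strains did not overlap. The part of all these cell type markers in the results below was not tested.

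Of the 9 genes, 3 passed the test between strains at an adjusted p under 0.05 (edgeR's quasi-likelihood test, adjusted over the 15330 genes tested), and in the same 3 the libraries of the strains did not overlap. Cd209b was lower in NOD.B10, and Siglec1 and Colec12 were higher. Across all genes tested, 17.3% were called, 9.11% as higher and 8.22% as lower in NOD.B10, and in 38.0% the libraries of the strains did not overlap. The median log2 fold change of the 9 genes was -0.06, and that of all genes tested was 0.00060. The other 6 genes did not pass the test, so the results turn on single genes.

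Cd209b carried the strain difference that held under every alternative, and it has close relatives beside it on chromosome 8. The stretches of 250 bases before the start of Cd209b and of its neighbour Cd209d are shown because these genes changed in opposite directions, and that of Marco is shown because Marco shares the marginal zone macrophage with Cd209b. They are from RefSeq (build GRCm38.p6), all on the minus strand, at chr8:3926842-3927091, chr8:3878500-3878749 and chr1:120505025-120505274. Capitals mark the letters GAGGAA, a motif like sites bound by the myeloid factor PU.1, or TTCCTC, the same letters on the other strand. Other forms of such sites were not searched for.
Cd209b: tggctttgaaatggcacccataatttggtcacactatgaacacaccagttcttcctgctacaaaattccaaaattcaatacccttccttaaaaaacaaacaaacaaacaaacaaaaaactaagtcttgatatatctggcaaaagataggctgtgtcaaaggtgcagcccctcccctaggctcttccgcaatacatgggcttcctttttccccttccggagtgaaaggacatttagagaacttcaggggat
Cd209d: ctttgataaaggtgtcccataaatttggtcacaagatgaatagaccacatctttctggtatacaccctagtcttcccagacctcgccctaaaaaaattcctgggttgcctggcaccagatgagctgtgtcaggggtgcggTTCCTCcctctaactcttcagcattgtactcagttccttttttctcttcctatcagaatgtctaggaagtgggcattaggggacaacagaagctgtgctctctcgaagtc
Marco: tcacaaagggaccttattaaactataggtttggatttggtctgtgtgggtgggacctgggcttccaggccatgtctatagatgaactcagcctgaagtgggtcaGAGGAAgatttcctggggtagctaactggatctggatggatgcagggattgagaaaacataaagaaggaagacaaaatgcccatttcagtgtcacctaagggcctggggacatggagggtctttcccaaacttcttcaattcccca
The letters GAGGAA lay 146 bases before the start of Marco and, on the other strand, 110 bases before that of Cd209d, and were not found in the Cd209b stretch. Among 32851 stretches of the same length in the table, 23.3% held them on either strand. An AP-1-like motif, TGANTCA, was in none of the 3 stretches and in 6.75% of all. The Cd209b and Cd209d stretches were identical at 164 of 250 bases after alignment. The Cd209b stretch aligned with those of Cd209a, Cd209c and Cd209e at 148, 141 and 148 bases. With those of Marco, Cd68 and Cd36 it aligned at 138, 138 and 149 bases.

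Reads of related genes can be confused when the genes share stretches as long as a read, here 50 bases. The longest run of identical bases between any transcripts of Cd209b and Cd209d was 25 bases, and that between Cd209b and Cd209a was 18 bases. They are shown because both are shorter than a read.
Cd209b and Cd209d: ttcctgcagcagacttctaaggcta
Cd209b and Cd209a: ctgcccctgggactggac
Of all 50-base stretches in the annotated transcripts of Marco, Cd209a, Cd209b, Cd209d, Msr1, Cd36, Nr1h3 and Cd68, 0% occurred in another gene. For Siglec1 the share was 1.33% and for Colec12 4.33%. Exons overlapped another annotated gene in Nr1h3 alone of the 9, over 34 bases or 1.35% of its exon length.

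Cd209b (ENSMUSG00000065987, chr8:3917655-3926844 in GRCm38, minus strand) encodes the lectin with which marginal zone macrophages capture capsular polysaccharides. Its reads numbered 435, 349 and 515 in NOD.B10 replicates 1, 2 and 3 and 1329, 1174 and 1350 in BL/10. After scaling by TMM, which sets the libraries to a common size, these were 26.0, 21.4 and 28.9 CPM in NOD.B10 and 72.2, 78.7 and 76.7 CPM in BL/10. Every NOD.B10 library lay far below every BL/10 library. The mean was 25.5 ± 3.78 CPM in NOD.B10 and 75.9 ± 3.35 CPM in BL/10 (SD, n = 3 each), so that BL/10 spleens held 2.98-fold more. The log2 fold change of NOD.B10 over BL/10 was -1.57 (SE 0.12, edgeR adjusted p = 0.000202). It stayed between -1.68 and -1.46 under all 15 alternatives, with each library left out in turn and with the 26-week libraries alone, and passed the threshold in each of them.

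Marco (ENSMUSG00000026390, chr1:120474538-120505024, minus strand) encodes a class A scavenger receptor for bacteria on the same macrophages. Its level was 264.2, 234.9 and 280.8 CPM in NOD.B10 and 234.8, 212.4 and 271.7 CPM in BL/10. The strains overlapped, and the spread within each strain was wider than the gap between their means. The means were 260.0 ± 23.2 CPM and 239.6 ± 29.9 CPM (SD, n = 3 each), and the log2 fold change of 0.12 (SE 0.13) did not pass the test (edgeR adjusted p = 0.543). The markers were then set against each other within each library. For every 100 Marco reads there were 9.85, 9.12 and 10.3 Cd209b reads in NOD.B10 and 30.7, 37.1 and 28.2 in BL/10. No library of one strain came near the other in this ratio, whose exact permutation p of 0.1 is the smallest that 3 libraries against 3 can give. This ratio was chosen after its values were seen.

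Siglec1 (ENSMUSG00000027322, chr2:131069220-131086765, minus strand) encodes a receptor for sialic acid that is also known as an interferon-induced gene. Its reads numbered 1789, 1353 and 2035 in NOD.B10 and 1107, 1136 and 1336 in BL/10, or 107.0, 83.1 and 114.3 CPM against 60.1, 76.2 and 75.9 CPM. The lowest NOD.B10 library, replicate 2, was close to the highest BL/10 libraries. The mean was 101.5 ± 16.3 CPM in NOD.B10 and 70.7 ± 9.20 CPM in BL/10 (SD, n = 3 each), and the log2 fold change of 0.52 (SE 0.15) was just past the threshold (edgeR adjusted p = 0.0472). The direction stayed the same in all 15 alternatives, but the call was lost in 7 of them, with adjusted p up to 0.153. Leaving out NOD.B10 replicate 1 gave 0.48 (edgeR adjusted p = 0.153), leaving out NOD.B10 replicate 3 gave 0.43 (adjusted p = 0.152), and leaving out BL/10 replicate 1, 2 or 3 gave 0.41, 0.57 and 0.57 (adjusted p = 0.0633, 0.0831 and 0.0792). Of 14 interferon-induced genes, 10 were lower in NOD.B10 and 0 were higher, and their median log2 fold change was -1.23 (5 were lower without NOD.B10 replicate 3 and 3 with the 26-week libraries alone). The summed level of these genes was 485.1 to 621.1 CPM in NOD.B10 and 675.1, 1498 and 1312 CPM in BL/10 replicates 1, 2 and 3. The part of interferon in the Siglec1 level was not tested.

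**Figure D1:**
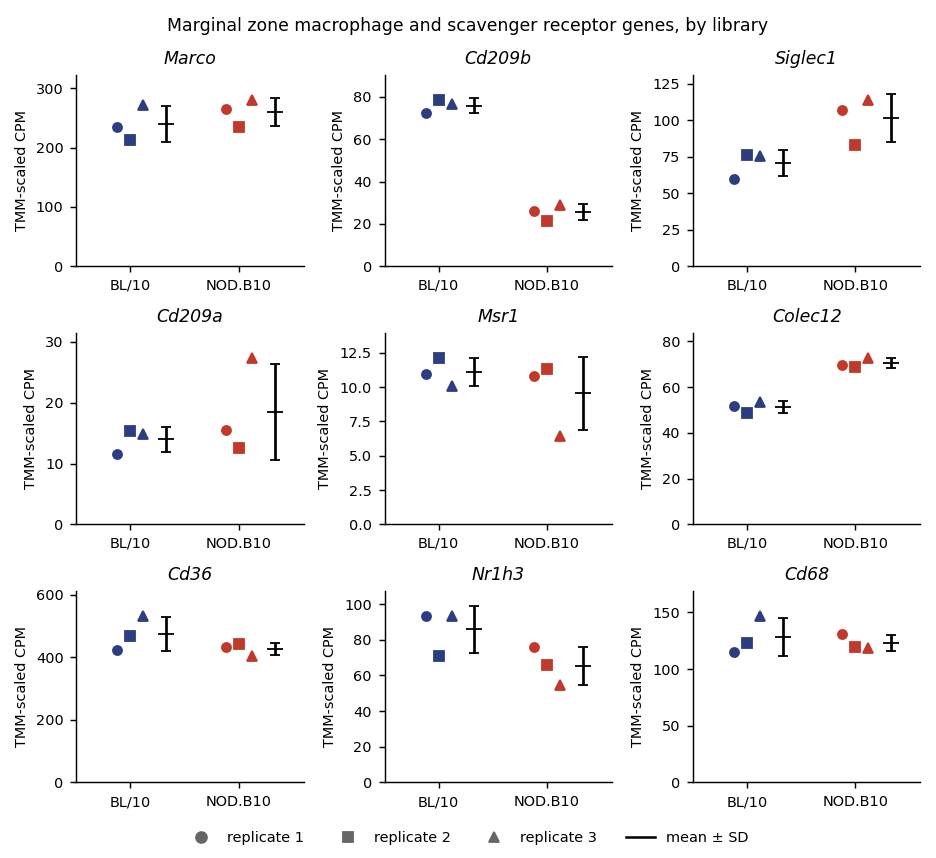
Level of each gene in each library as TMM-scaled CPM (vertical axes, starting at 0), with BL/10 in blue and NOD.B10 in red. Symbols mark the replicates and black bars the mean and SD of 3 libraries. The libraries of the strains are apart for Cd209b, Siglec1 and Colec12 and overlap for the other 6 genes.

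Cd209a (ENSMUSG00000031494, chr8:3743397-3748984, minus strand) encodes DC-SIGN of the mouse, a lectin found mainly on dendritic cells and monocytes. Its level was 15.5, 12.5 and 27.4 CPM in NOD.B10 and 11.6, 15.4 and 14.9 CPM in BL/10. NOD.B10 replicate 3 was well above the other 5 libraries, which overlapped. The log2 fold change of 0.41 (SE 0.28) did not pass the test (edgeR adjusted p = 0.343) and was 0.006 without that library. In the same library Msr1 was at its lowest.

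Cd209b has 6 further relatives in the list used here, of which 5 were in the table and 3 had enough reads to be tested. Cd209d, whose start lies at -48.3 kb from that of Cd209b, was counted at 153, 138 and 253 reads in NOD.B10 and 115, 76 and 77 reads in BL/10. Every NOD.B10 library was above every BL/10 library, and the log2 fold change was 1.02 (SE 0.24, edgeR adjusted p = 0.0255). That call was lost with the 26-week libraries alone (0.77, edgeR adjusted p = 0.263) and without NOD.B10 replicate 1 (adjusted p = 0.0544), NOD.B10 replicate 3 (0.0617), BL/10 replicate 2 (0.0746) or BL/10 replicate 3 (0.0839). For every 100 Cd209b reads there were 35.2, 39.5 and 49.1 Cd209d reads in NOD.B10 and 8.65, 6.47 and 5.70 in BL/10, a ratio that was also chosen after its values were seen. Neighbouring relatives thus differed between the strains in opposite directions. Cd209e had 9 to 14 reads in NOD.B10 and 19 to 21 in BL/10, and its log2 fold change of -0.83 did not pass the test (edgeR adjusted p = 0.0726). Cd209c, at 6 to 13 and 10 to 16 reads, had a log2 fold change of -0.54 (edgeR adjusted p = 0.3), and 15.7% of its 50-base stretches occurred in other genes. Cd209f and Cd209g were below the filter on low counts and share stretches with each other.

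Within 250 kb on either side of the Cd209b start, a window set after the Cd209 values were seen, lay 24 annotated genes, of which 10 were tested. Cd209d was the 1 called higher and Cd209b the 1 called lower. Fcer2a, which encodes the low-affinity IgE receptor CD23 of B cells, had a log2 fold change of 0.56 (edgeR adjusted p = 0.273) and Clec4g, a lectin of endothelial cells, one of -0.48 (adjusted p = 0.216). The window held no run of genes called in 1 direction. With 17.3% of all genes tested called, 10 genes would hold few calls, so this says little about the region.

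**Figure D2:**
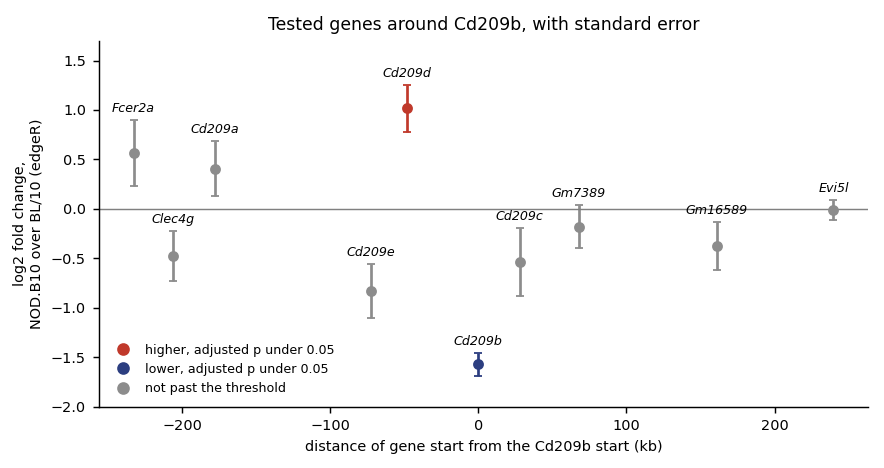
Log2 fold change of NOD.B10 over BL/10 (vertical axis, edgeR, bars show the SE) for the 10 tested genes within 250 kb of Cd209b, against the distance of each gene's start from the Cd209b start in kb (horizontal axis). Cd209b at -1.57 and Cd209d at 1.02 are the genes past the threshold, and the 8 grey points are not past it.

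Colec12 (ENSMUSG00000036103, chromosome 18) encodes a scavenger receptor with a collagen stalk and a C-type lectin head, known best from endothelial cells. Its reads numbered 1168, 1124 and 1298 in NOD.B10 and 953, 727 and 943 in BL/10, or 69.9, 69.0 and 72.9 CPM against 51.8, 48.8 and 53.6 CPM. The libraries within each strain were close together and the strains were apart. The mean was 70.6 ± 2.06 CPM in NOD.B10 and 51.4 ± 2.44 CPM in BL/10 (SD, n = 3 each), with a log2 fold change of 0.46 (SE 0.08, edgeR adjusted p = 0.00772). It held when each library was left out and was lost with the 26-week libraries alone (0.45, edgeR adjusted p = 0.069), where BL/10 replicate 1 was the lone control. Of 12 endothelial and stromal markers, 3 were higher and 1 was lower in NOD.B10. The counts were 0 and 0 without NOD.B10 replicate 1 or BL/10 replicate 2, 1 and 0 without NOD.B10 replicate 2, 1 and 1 without NOD.B10 replicate 3, and 4 and 0 without BL/10 replicate 3, with 2 and 0 in the 26-week libraries alone. Their summed level was 782.7 to 976.7 CPM in NOD.B10 and 706.1 to 950.9 CPM in BL/10, and their part in the Colec12 result was not tested.

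Msr1 (ENSMUSG00000025044, chr8:39581700-39642678, minus strand) encodes scavenger receptor A, the first receptor described for modified lipoproteins. It was the lowest of the 9 genes, at 10.8, 11.3 and 6.46 CPM in NOD.B10 and 10.97, 12.1 and 10.1 CPM in BL/10. NOD.B10 replicate 3 lay below the rest and the other libraries overlapped. The log2 fold change was -0.22 (SE 0.21, edgeR adjusted p = 0.508), and it was 0.003 without that library.

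Cd36 (ENSMUSG00000002944, chr5:17781690-17888801, minus strand) encodes a receptor for long-chain fatty acids, oxidized lipoproteins and dying cells that is found on red pulp macrophages, marginal zone B cells, platelets and adipocytes. Its level was 433.9, 441.1 and 404.1 CPM in NOD.B10 and 422.4, 469.2 and 533.1 CPM in BL/10. BL/10 replicate 3, the library with the high adipocyte sum, was the highest. The log2 fold change of -0.16 (SE 0.12) did not pass the test (edgeR adjusted p = 0.387) and was -0.07 without that library. With the 26-week libraries alone it was 0.013.

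Nr1h3 (ENSMUSG00000002108, chr2:91184061-91202834, minus strand) was counted at 1267, 1076 and 970 reads in NOD.B10 and 1722, 1054 and 1644 in BL/10, or 75.8, 66.1 and 54.5 CPM against 93.5, 70.7 and 93.4 CPM. BL/10 replicate 2 fell within the NOD.B10 range. The log2 fold change of -0.39 (SE 0.15) did not pass the test after adjustment (unadjusted p = 0.0356 by edgeR, adjusted p = 0.118), and its direction was the same in all 15 alternatives. Nr1h3 and Colec12, and Tyro3 and Ccl19 among the genes named below, are also displayed by the study from these same libraries, so their directions are not independent evidence.

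Cd68 (ENSMUSG00000018774, chr11:69664213-69666153, minus strand) was at 131.1, 119.1 and 118.5 CPM in NOD.B10 and 115.4, 122.9 and 147.1 CPM in BL/10. The strains overlapped, and BL/10 replicate 3 was the highest. The log2 fold change was -0.06 (SE 0.11, edgeR adjusted p = 0.724), and it was 0.04 without that library.

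**Figure D3:**
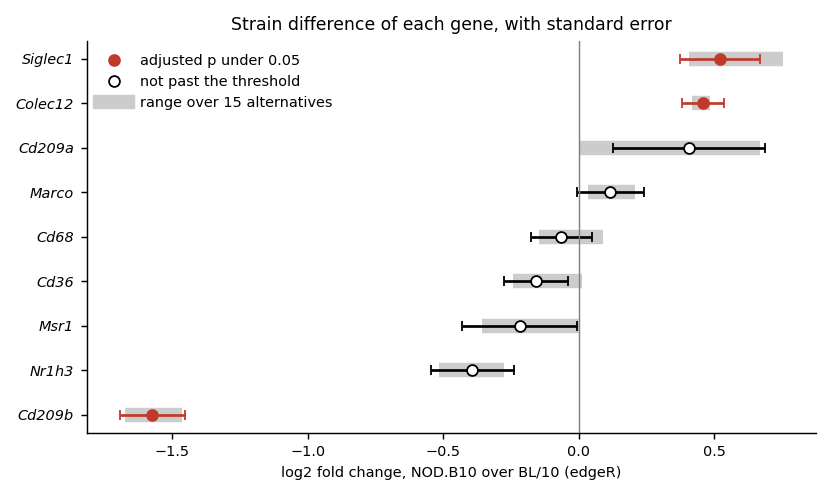
Log2 fold change of NOD.B10 over BL/10 (horizontal axis, edgeR) for each gene, with the SE as a bar and the range over 15 alternatives in grey. Filled red points are past the adjusted threshold. Cd209b lies from -1.68 to -1.46 in every alternative, the Siglec1 and Colec12 ranges stay above 0, and the ranges of Msr1, Cd36 and Cd68 cross 0.

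The order of the genes by level was compared per kilobase of exon, since a longer gene collects more reads. In NOD.B10 the levels were 135.0 CPM per kb for Marco, 118.8 for Cd36 and 97.8 for Cd68, then 26.0 for Nr1h3, 21.3 for Colec12, 14.2 for Siglec1, 12.04 for Cd209b, 11.7 for Cd209a and 2.38 for Msr1. In BL/10 they were 132.3 for Cd36, 124.5 for Marco, 102.2 for Cd68, 35.9 for Cd209b, 34.1 for Nr1h3, 15.5 for Colec12, 9.90 for Siglec1, 8.83 for Cd209a and 2.77 for Msr1. Cd209b thus had rank 4 in BL/10, where its libraries overlapped those of Nr1h3, and rank 7 in NOD.B10, where they overlapped those of Siglec1 and Cd209a. Marco and Cd36 overlapped in both strains, as did Siglec1 and the gene below it in each order, Nr1h3 and Colec12 in NOD.B10, and Marco and Cd68 in BL/10.

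To set the marginal zone genes against the amount of macrophage RNA, 6 of them were divided by Cd68, a gene that most macrophages use, in each library. On the log2 scale the Cd209b to Cd68 ratio was -2.33, -2.47 and -2.03 in NOD.B10 and -0.68, -0.64 and -0.94 in BL/10, a difference of -1.53. The Siglec1 to Cd68 ratio was -0.29, -0.52 and -0.05 against -0.94, -0.69 and -0.95, a difference of 0.57. In both the libraries of the strains did not overlap, and both gave the smallest exact permutation p possible, 0.1. The differences for Marco (0.18, exact p = 0.3), Cd209a (0.39, exact p = 0.5), Msr1 (-0.20, exact p = 0.5) and Nr1h3 (-0.34, exact p = 0.2) rested on overlapping libraries.

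The divisor changed some of these differences. With Adgre1 (F4/80, a marker of red pulp macrophages) as the divisor the Cd209b difference was -1.22, and with Csf1r (the receptor for the macrophage growth factor Csf1) it was -1.51. Siglec1 was at 0.88 and 0.59 (exact p = 0.1 for all 4). Marco was at 0.49 with Adgre1, where the libraries of the strains did not overlap (exact p = 0.1), and at 0.20 with Csf1r (exact p = 0.2). Cd209a was at 0.70 with Adgre1, also without overlap (exact p = 0.1), and at 0.41 with Csf1r (exact p = 0.3). Nr1h3 was at -0.03 and -0.32 (exact p = 1 and 0.3), and Msr1 at 0.11 and -0.18 (exact p = 0.8 and 0.7). Adgre1 itself had a log2 fold change of -0.37 (edgeR adjusted p = 0.0777), with every NOD.B10 library below every BL/10 library, and Csf1r one of -0.08 (edgeR adjusted p = 0.697).

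**Figure D4:**
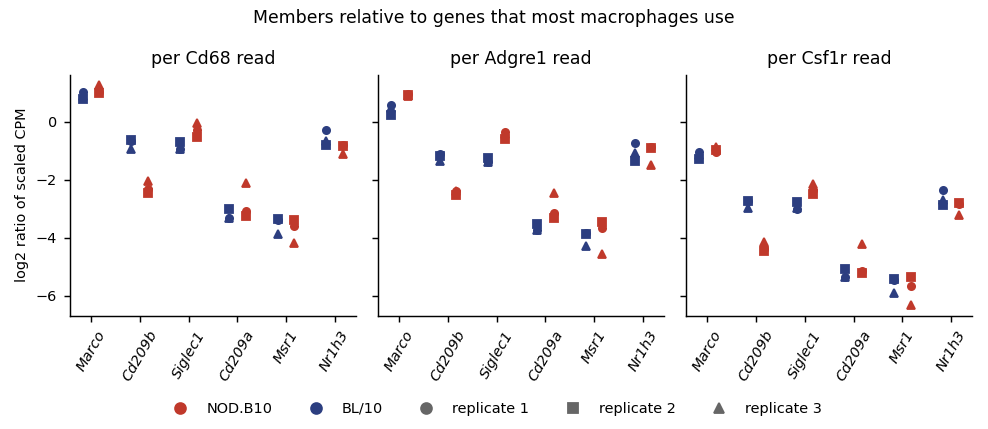
Log2 ratio of 6 genes to Cd68, Adgre1 or Csf1r in each library (vertical axis, ratio of TMM-scaled CPM), with BL/10 in blue and NOD.B10 in red and symbols for replicates. Under all 3 divisors the Cd209b points of NOD.B10 lie below and the Siglec1 points of NOD.B10 lie above those of BL/10.

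Other scavenger receptors moved in both directions. Of 20 listed, 19 were tested, 3 were higher and 4 were lower in NOD.B10, and the median log2 fold change was 0.03. Cd163, the haemoglobin-haptoglobin receptor of red pulp macrophages, was counted at 2003, 1801 and 1847 reads in NOD.B10 and 349, 617 and 756 in BL/10, with a log2 fold change of 1.696 (SE 0.28, edgeR adjusted p = 0.00642). Stab1, a clearance receptor of sinusoidal endothelium and macrophages, had one of 0.65 (adjusted p = 0.0355), and Pear1, a receptor of platelets and endothelium, one of 0.49 (adjusted p = 0.049). On the lower side Cd5l, a secreted protein of tissue macrophages and a known LXR target, fell from 6341, 5078 and 6460 reads in BL/10 to 2281, 1866 and 1574 in NOD.B10, by 1.63 on the log2 scale (edgeR adjusted p = 0.000666). Clec7a, the β-glucan receptor Dectin-1, and Olr1, the lectin-like receptor for oxidized lipoproteins, had log2 fold changes of -1.16 and -1.72 (edgeR adjusted p = 0.00312 and 0.0108). The fourth, Scarb2, a lysosomal membrane protein, had one of -0.30 (adjusted p = 0.0409), while Scarb1, the receptor for high-density lipoprotein, was not past the threshold at -0.31 (adjusted p = 0.221). Cd163 and Cd5l were past the threshold in all 15 alternatives, and Pear1 lost its call in 9 of them and Scarb2 in 8. Stab1 lost its call without NOD.B10 replicate 1, 2 or 3 or BL/10 replicate 2 (edgeR adjusted p up to 0.127), and Olr1 lost it with the 26-week libraries alone, where its log2 fold change was -0.93 (adjusted p = 0.123). Without NOD.B10 replicate 1, NOD.B10 replicate 2 or BL/10 replicate 2, 1 gene of the list was higher and 3 were lower, and with the 26-week libraries alone 2 were higher and 2 lower.

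The 23 listed partners and targets of Nr1h3 showed no common direction. Cd5l, given above as a known LXR target and lower at -1.63, was not in this list, so the counts and the median leave it out. Of 23 genes, 3 were higher and 2 were lower in NOD.B10 around a median of 0.11 (log2), and the closely related receptor Nr1h2 (LXRβ) was at 0.03 (edgeR adjusted p = 0.799). The cholesterol exporters Abca1 and Abcg1, the best known LXR targets, were at 0.30 and 0.22 and did not pass the test (edgeR adjusted p = 0.179 and 0.308). Apoc1, an apolipoprotein, and Arl4c, a small GTPase, were higher, with log2 fold changes of 1.38 and 0.96 (edgeR adjusted p = 0.00412 each). Scd2, a fatty acid desaturase, was lower at -0.52 (edgeR adjusted p = 0.0411). Without NOD.B10 replicate 1, 2 were higher and 0 lower, without NOD.B10 replicate 3 or BL/10 replicate 2, 2 were higher and 1 lower, and with the 26-week libraries alone 0 of the 23 passed in either direction.

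Genes of uptake, lipid handling and digestion were mostly not past the threshold, as was true of all genes tested, of which 17.3% were called. Of 18 partners in the uptake of dying cells, 2 were higher and 0 lower, with a median of 0.01. These were the receptor kinase Tyro3 at 1.25 (edgeR adjusted p = 0.00583) and the integrin Itgav at 0.54 (adjusted p = 0.0181), whereas the phosphatidylserine-linked receptors Mertk and Timd4 were at 0.00 and -0.20 (adjusted p = 0.99 and 0.18). The count of genes higher was 1 without NOD.B10 replicate 1, NOD.B10 replicate 3, BL/10 replicate 2 or BL/10 replicate 3. Without BL/10 replicate 2, 1 gene was also lower, and without BL/10 replicate 1, 3 were higher and 0 lower. The median of the list was 0.048 with the 26-week libraries alone. Of 16 tested genes of the PPAR pathway and fatty acid handling, to which Cd36 is linked, 1 was higher and 0 were lower, and Pparg was at -0.21 (edgeR adjusted p = 0.392). Of 18 lysosome genes, 3 were lower and 0 higher, with a median of -0.10. The proton pump subunit Atp6v0d2 fell from 311, 253 and 326 reads in BL/10 to 44, 64 and 40 in NOD.B10, a log2 fold change of -2.57 (edgeR adjusted p = 0.000222), and the peptidase Tpp1 was at -0.51 (adjusted p = 0.00703).

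The marginal zone depends on lymphotoxin, on adhesion molecules and on stromal chemokines. Of 24 tested genes of this niche, 5 were higher and 0 lower in NOD.B10, around a median of 0.33 (log2). Across all genes tested, 17.3% were called, 9.11% as higher and 8.22% as lower. The chemokine Ccl19 was at 1.43 (edgeR adjusted p = 0.0069), the sinus-lining adhesion molecule Madcam1 at 0.80 (adjusted p = 0.00566) and the sphingosine phosphate receptor S1pr3 at 0.54 (adjusted p = 0.00985). The lymphotoxin subunit Ltb and the macrophage growth factor Csf1 were at 0.48 and 0.24 and did not pass (edgeR adjusted p = 0.148 and 0.353). The count was 9 without BL/10 replicate 1, 2 without NOD.B10 replicate 1, 3 without NOD.B10 replicate 3 and 0 with the 26-week libraries alone. The T cell markers, higher in NOD.B10 as given above, moved with these genes, and their part in the niche result was not tested. Of 7 marginal zone B cell markers, 2 were higher and 2 lower, and S1pr3, also counted in the niche, was among those higher. The counts were 0 and 1 without NOD.B10 replicate 1, 1 and 1 without NOD.B10 replicate 3, 4 and 2 without BL/10 replicate 1, and 0 and 2 in the 26-week libraries alone.

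Among the 10 red pulp macrophage markers, 3 were higher and 1 was lower. Besides Cd163, the integrin Itgad was higher at 0.72 (edgeR adjusted p = 0.00938), and the iron exporter Slc40a1 was lower at -0.62 (adjusted p = 0.00985). The other gene higher was Vcam1 at 0.385 (edgeR adjusted p = 0.0492), which was also counted among the niche genes. Spic, the factor that sets the red pulp macrophage fate, was at 296.4, 275.3 and 145.9 CPM in NOD.B10 and 146.5 to 152.1 CPM in BL/10. Its log2 fold change of 0.68 did not pass (edgeR adjusted p = 0.0886), though it passed in 2 of the 15 alternatives. Slc40a1 lost its call in 2 of the 15. Leaving out NOD.B10 replicate 3 gave 3 markers of this list higher and 0 lower. Of the 15 monocyte and macrophage markers, 0 were higher and the 3 named at the start were lower, with a median log2 fold change of -0.004. Without BL/10 replicate 2, 0 were higher and 1 was lower, and without BL/10 replicate 3, 1 was higher and 1 lower. Leaving out NOD.B10 replicate 3 gave 1 higher and 2 lower, and limma-voom gave 2 higher and 4 lower. The median was 0.166 with the 26-week libraries alone.

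**Figure D5:**
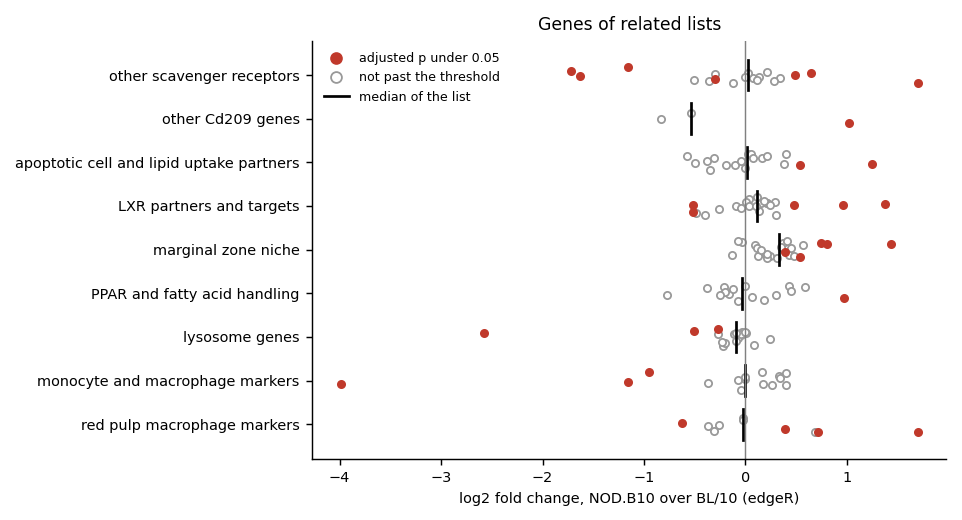
Log2 fold change of NOD.B10 over BL/10 (horizontal axis, edgeR) for every tested gene of 9 related lists, one row for each list. Filled red points are past the adjusted threshold and black bars are list medians, which lie at 0.03 for other scavenger receptors, 0.11 for LXR partners and targets and 0.33 for the marginal zone niche.

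The genes whose levels followed Marco and Cd209b most closely over the 6 libraries were ranked among 11551 genes with a mean of at least 5 CPM. For Marco these were Pald1 (Pearson r = 0.996), Bcr (r = 0.989) and Pex10 (r = 0.988). For Cd209b they were Pgap2 (r = 0.997), Igkv8-30 (r = 0.997) and Milr1 (r = 0.996). With 6 libraries that share 2 strains, these values only describe the order of the libraries.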

How the data were processed

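The authors sequenced 1 spleen library from each of 3 NOD.B10 and 3 BL/10 females in 50-cycle single-end reactions. The authors deposited raw read counts, without normalization, and each gene's exon length in bases, a value of no sample. Per the file headers, reads were counted on exons with featureCounts 1.5.1 and Ensembl annotation 84 (GRCm38), without strand. Aligners differ between sources: the paper names Tophat2 and the submitters' processing notes HISAT2 2.0.5. Reads of NOD alleles that differ from the reference may be counted less completely, which was not tested. Libraries of Myd88-deficient mice, which the header lists, were not analysed here.

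Counts were analysed with R 4.3.3 and edgeR 4.0.16 (filterByExpr, TMM, quasi-likelihood test, BL/10 as reference, Benjamini-Hochberg adjusted p under 0.05). Each standard error was derived from a gene's fold change and F value. Library totals were 16257041 to 17160323 in NOD.B10 and 15662712 to 18298451 in BL/10, and p-values measure the spread between these mice. With 3 libraries against 3, an exact permutation test cannot go below 0.1. Likeness was computed on log2 CPM with a pseudocount of 0.5. Alternatives were DESeq2 1.42.0, limma-voom (limma 3.58.1) with quality weights, RLE and upper-quartile factors, other filters, a replicate block, leaving out hemoglobin, immunoglobulin and pancreas genes, 26-week libraries alone, and leaving out each library. The procedure was tested on simulated counts. Members and lists were chosen with earlier results of these data known. Genes named were the members, up to 3 called genes each way per list by smallest p, and genes with a defining role. In addition, Fcer2a, Clec4g, Lyz2, Scarb2, C1qa, C1qb, C1qc, Cx3cr1, Maf and Ccr2 were named after their values were seen. Some called genes of these lists are counted but not reported by name here.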

Additional observations from a re-analysis of the deposited data

How the results depend on the processing

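Cd209b passed the threshold in all 15 alternatives, and Marco, Siglec1, Cd209a, Cd209b, Colec12 and Nr1h3 kept their direction in all 15. With the libraries labelled 26 weeks alone, 1001 genes and 1 of the 9 members (Cd209b) were called, Siglec1 was at 0.76 and Colec12 at 0.45 without passing, and Cd36 (0.013), Cd68 (0.09), Scarb1 (0.024), Mertk (0.153), Csf1r (0.079) and Pparg (0.09) changed sign. That fit holds 1 BL/10 library, which is assumed to vary like the NOD.B10 libraries. Leaving out each library gave 1269 to 4107 genes called against 2656 with all, the highest without BL/10 replicate 1, and 2 to 3 members called. The log2 fold changes were then 0.41 to 0.65 for Siglec1, -0.357 to 0.003 for Msr1, -0.146 to 0.038 for Cd68, -0.129 to 0.116 for Mertk and -0.16 to 0.011 for Csf1r, and the Msr1 to Cd68 difference was -0.365 to 0.034. Mertk was also at 0.022 with upper-quartile factors and 0.035 with voom weights, and the Msr1 difference was 0.108 with Adgre1 as the divisor. The cause of these changes was not tested. In the 26-week fit, fewer samples, age and the choice of BL/10 library cannot be told apart.

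Same-numbered libraries of the strains had correlations of 0.05, 0.25 and -0.08, and those with different numbers had -0.238 to 0.194. With 3 libraries in each strain, these values cannot decide whether the numbers pair the mice. With a replicate block Siglec1 was at 0.52 and lost its call (edgeR adjusted p = 0.0575), and the other members kept their side of the threshold. Counts of 6 to 21 reads, as for Cd209c and Cd209e, limit those genes.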
